A study of Mus musculus with 4 samples.

Results

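Mitochondrial beta-oxidation shortens fatty acyl-CoA in repeated rounds inside the mitochondrial matrix, and it is the main source of acetyl-CoA for the adult heart. Each round has a first dehydrogenation by an acyl-CoA dehydrogenase, a hydration, a second dehydrogenation of the 3-hydroxyacyl intermediate and a thiolytic cleavage that releases acetyl-CoA. Separate enzymes serve long, medium and short acyl chains. The 10 genes described here encode these enzymes, and they were picked by symbol from the 55401 gene models of the expression table. *Acadvl*, *Acadl*, *Hadha* and *Hadhb* act on long chains, *Acadm*, *Hadh* and *Acaa2* mainly on medium chains, *Acads* and *Echs1* on short chains, and *Eci1* on the double bonds of unsaturated chains. Each symbol matched exactly 1 gene model, and all 10 passed the filter on low values.

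PolyA RNA came from heart tissue of 8-week-old mice, with 2 wild-type libraries and 2 libraries heterozygous for the CTCF-R567W substitution (*Ctcf* +/R567W). Each library is called a heart below, although the labels do not say that the replicates are separate mice. The mutation was made by CRISPR/Cas9 editing of C57BL/6N mice, both genotypes were kept under the same specific pathogen-free housing with no other treatment named, and it is carried by all heart cells and not by cardiomyocytes alone. The comparison asks how gene expression of the adult heart differs between heterozygous and wild-type mice, and the sex of the mice is not given in the sources used here. The deposited values are TPM, transcript abundances that are corrected for transcript length and add up to the same total in each library. Sequencing depth, and with it the counting error of a value, cannot be read from TPM and is unknown.

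Genes of the mitochondrial genome took 64.7% and 61.1% of the TPM in wild-type libraries and 68.6% and 62.6% in heterozygous ones, with overlap. Nuclear copies of those genes were listed with a further 14.1% and 14.9% against 17.2% and 19.8%, without overlap. These 11 copies are at least 95% identical to mitochondrial transcripts, so how reads were split among them is uncertain. The 10 beta-oxidation genes together held 0.0825% and 0.102% in wild-type hearts against 0.0444% and 0.0584% in heterozygous ones, and pairs of values always give replicate 1 before replicate 2. Because these shares depend on what the mitochondrial transcripts leave, TPM were divided by 1 median-of-ratios factor per library, which gives what is called scaled TPM here. Fold changes are given as log2(scaled TPM + 1), heterozygous minus wild-type, from limma fitted over the 10036 genes with a mean of at least 1 TPM. This scale understates the change of low genes. Without the scaling, the 10036 genes had a median log2 fold change of -0.35, and with it one of -0.005. Cardiomyocyte markers were abundant in all libraries, and *Myh6*, the alpha myosin heavy chain, had between 7466 and 11559 TPM.

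The pair *Hadha* and *Hadhb* encodes the alpha and beta subunits of the mitochondrial trifunctional protein, which carries out the last 3 steps of a long-chain round. These genes are neighbours on chromosome 5 and point away from each other, *Hadha* at 30118304 to 30155162 on the minus strand and *Hadhb* at 30155248 to 30184593 on the plus strand (GENCODE M21, mm10). The 85 bases between them are shown because they lie directly upstream of both subunit genes in GENCODE. The RefSeq starts of *Hadha* and *Hadhb* lie further apart, with 272 bases between them. *Acadvl*, on chromosome 11 at 70010183 to 70015411 on the minus strand, encodes very long-chain acyl-CoA dehydrogenase and was the most abundant of the 10, and the stretch before its first annotated exon is shown for contrast. Both are RefSeq sequence of GRCm38.p6, read 5′ to 3′ on the strand of *Hadhb* and of *Acadvl*, with GC boxes (GGGCGG or its complement) and the nuclear receptor hexamer AGGTCA in capitals.
Hadha-Hadhb gap, chr5:30155163-30155247, plus strand: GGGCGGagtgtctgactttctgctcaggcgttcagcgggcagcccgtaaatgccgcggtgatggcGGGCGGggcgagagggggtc
Acadvl upstream, chr11:70015412-70015678, minus strand: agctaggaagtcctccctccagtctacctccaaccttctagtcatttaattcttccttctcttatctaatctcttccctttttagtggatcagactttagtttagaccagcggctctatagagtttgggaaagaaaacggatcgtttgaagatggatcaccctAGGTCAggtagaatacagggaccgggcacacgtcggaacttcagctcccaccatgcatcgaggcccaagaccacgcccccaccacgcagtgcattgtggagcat
The gap has 69.4% G and C, 9 CG dinucleotides and 2 GC boxes, whereas the *Acadvl* stretch has 49.4% G and C, no GC box and 1 AGGTCA hexamer. RefSeq windows of 300 bases, 250 before and 50 after a gene's start, were found for 9 of the 10 genes. A GC box on either strand was present in 7 of these 9 windows, the exceptions being *Acadm* and *Acadvl*, and in 35.7% of all 32851 windows of that length. The hexamer AGGTCA was present in 3 of 9, those of *Acadvl*, *Acadm* and *Echs1*, against 16.3% of all windows. No window held TCAAGGTCA, the estrogen-related receptor element, which contains the hexamer and is found in 0.423% of all windows, or the direct repeat of the hexamer with a single spacer base, found in 0.0396%. The core of the CTCF motif was also not found in these 9 windows and occurred in 3.43% of all windows. Both strands were searched. The windows of *Hadha* and *Hadhb* share 228 bases and are not independent.

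All 10 beta-oxidation genes had a lower mean in heterozygous than in wild-type hearts, and none of them passed the test over all genes. A log2 fold change below 0 was found for 50.7% of all tested genes. The log2 fold changes of the 10 enzyme genes ran from -0.75 for *Hadh* to -0.20 for *Acadm*, with a median of -0.54 against -0.005 for all tested genes. A call needed an adjusted p below 0.05 with a difference of more than 1.5-fold, and 0 of the 10 met it, where 0.0199% of all tested genes (2 of 10036) were called lower (limma, Benjamini-Hochberg adjustment). The adjusted p values of the 10 ran from 0.302 to 0.708. Before adjustment, 6 of the 10 had p below 0.05, all lower, as did 5.71% of all tested genes in that direction. With 1 library left out, this number is given beside the share of all tested genes that were lower at the same limit. It was 0 of 10 against 2.26% without wild-type replicate 2, 3 against 2.52% without wild-type replicate 1, 4 against 6.38% without heterozygous replicate 1 and 8 against 12.3% without heterozygous replicate 2. Neither heterozygous heart reached the lower wild-type value for 9 of the 10, which was the case for 23.3% of all tested genes. The fitted difference was more than 1.5-fold for *Hadha*, *Hadh*, *Acads* and *Echs1*, 4 of the 10, against 2.25% of all tested genes in that direction. With 2 libraries in each group, an exact permutation test of a single gene cannot give a two-sided p under 0.333. In bulk heart tissue, fewer cells of a type and less RNA per cell cannot be told apart.

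**Figure D1:**
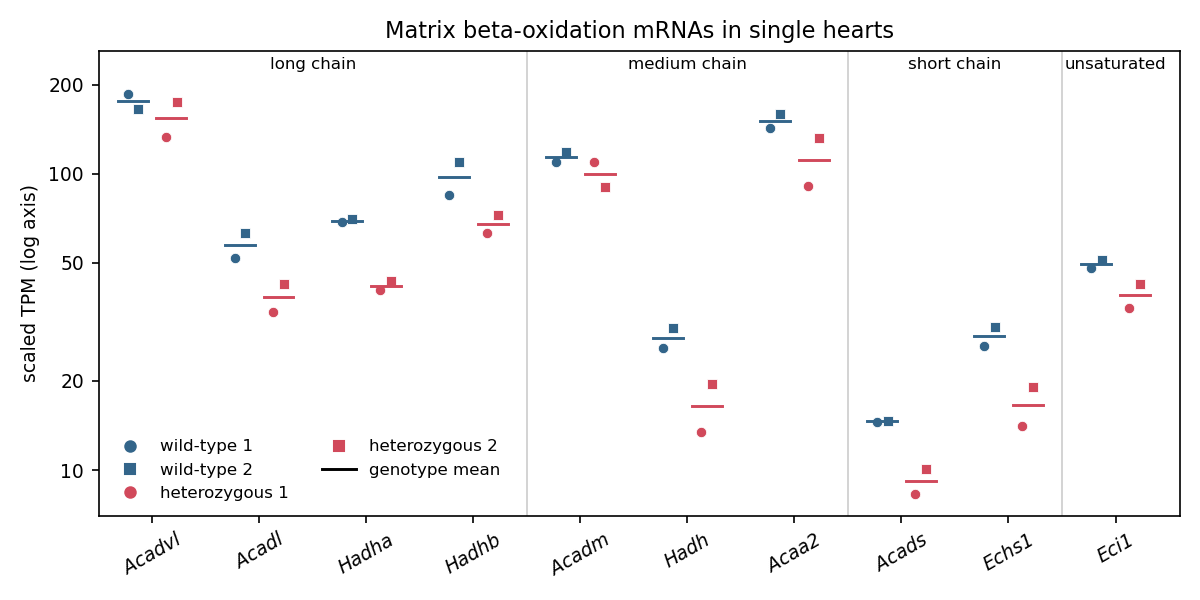
Scaled TPM (log axis) of the 10 beta-oxidation genes in each library (called a heart), from long-chain to short-chain enzymes. Circles show replicate 1, squares replicate 2 and bars the genotype means (n = 2 libraries). The heterozygous hearts lie under the wild-type hearts for every gene except *Acadvl*, and for *Acadm* by only 109.6 against 109.3 scaled TPM.

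Among the long-chain enzymes, *Acadvl* had 186.1 and 164.8 scaled TPM in wild-type hearts against 133.2 and 174.4 in heterozygous ones. The second heterozygous heart lay between the wild-type hearts, so the genotypes overlapped. The log2 fold change was -0.20 (95% interval -0.70 to 0.30, limma adjusted p = 0.708). *Acadl*, long-chain acyl-CoA dehydrogenase (chromosome 1, 66830839 to 66863277), had 51.8 and 63.1 scaled TPM in wild-type hearts and 34.3 and 42.4 in heterozygous hearts. The genotypes did not overlap, and the heterozygous mean was 66.7% of the wild-type mean (log2 fold change -0.57, 95% interval -1.04 to -0.10, adjusted p = 0.360).
*Hadha*, whose subunit holds the hydratase and 3-hydroxyacyl dehydrogenase activities, had 68.8 and 70.2 scaled TPM in wild-type hearts against 40.4 and 43.5 in heterozygous ones. It had the smallest adjusted p of the 10 genes, and the distance between the genotypes was several times the spread within either. Its mean was 69.5 ± 1.01 in wild-type against 41.9 ± 2.18 in heterozygous hearts (SD, n = 2). The log2 fold change was -0.72 with a standard error of 0.17 and an adjusted p of 0.302 from limma. *Hadhb*, the thiolase subunit, had 84.99 and 109.3 scaled TPM in wild-type and 63.0 and 72.6 in heterozygous hearts. These ranges did not overlap, but the distance between the wild-type hearts exceeded the gap to the nearest heterozygous heart (log2 fold change -0.51, 95% interval -0.99 to -0.02, adjusted p = 0.396).
A processed pseudogene, *Hadhb-ps*, is 99.8% identical to a *Hadhb* transcript over 1428 bases, so how reads were split among them is uncertain. It was listed at 0.38 to 1.47 TPM, against 51.5 to 137.7 TPM for *Hadhb*. *Acadvl* overlaps *Dvl2* on the opposite strand over 2119 bases, and *Dvl2* had between 0.68 and 1.39 TPM. Whether counting used the strand is not given in the sources used here, so reads in such overlaps cannot be told apart.

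For the medium-chain enzymes the picture was mixed. *Acadm*, medium-chain acyl-CoA dehydrogenase (chromosome 3, 153922357 to 153944632), had 109.6 and 118.6 scaled TPM in wild-type hearts and 109.3 and 90.4 in heterozygous hearts. The first heterozygous heart stood level with the first wild-type heart, and the log2 fold change of -0.20 had a 95% interval from -0.65 to 0.26 (limma adjusted p = 0.675). *Acadm* was the only gene of the 10 with its higher heterozygous value in replicate 1.
*Hadh*, which encodes the 3-hydroxyacyl-CoA dehydrogenase for medium and short chains (chromosome 3, 131233419 to 131272101), had 25.8 and 30.2 scaled TPM in wild-type hearts against 13.4 and 19.5 in heterozygous ones. Its genotypes did not overlap, but the gap between them was little more than the distance between the heterozygous hearts. The heterozygous mean was 58.8% of the wild-type mean. This was the lowest log2 fold change of the 10 genes, -0.75 (95% interval -1.26 to -0.24, adjusted p = 0.335). *Acaa2*, the 3-ketoacyl-CoA thiolase of the matrix (chromosome 18), had 142.7 and 159.6 scaled TPM in wild-type hearts against 91.2 and 132.0 in heterozygous ones. The heterozygous hearts were further from each other than the second of them was from the wild-type hearts, and the log2 fold change of -0.46 had an interval that included 0 (-1.01 to 0.10, adjusted p = 0.454).

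Both short-chain enzymes were lower in each heterozygous heart. *Acads*, short-chain acyl-CoA dehydrogenase (chromosome 5, 115110299 to 115119346), was the least abundant of the 10, with 14.5 and 14.7 scaled TPM in wild-type hearts against 8.31 and 10.1 in heterozygous ones. The wild-type values were almost the same, and the heterozygous mean was 63.0% of theirs (log2 fold change -0.62, 95% interval -1.0003 to -0.24, limma adjusted p = 0.331). *Echs1*, short-chain enoyl-CoA hydratase (chromosome 7, 140105710 to 140116476), had 26.2 and 30.3 scaled TPM in wild-type hearts against 14.1 and 19.1 in heterozygous ones. The genotypes were again separate, with a heterozygous mean at 58.8% of the wild-type mean (log2 fold change -0.74, 95% interval -1.21 to -0.27, adjusted p = 0.335). *Echs1* overlaps *Paox* on the opposite strand over 678 bases, and *Paox* was listed at 0.43 to 1.14 TPM. *Eci1*, the enoyl-CoA isomerase that moves double bonds of unsaturated chains into the position the hydratase uses (chromosome 17, 24426641 to 24439348), had 48.2 and 51.2 scaled TPM in wild-type and 35.3 and 42.4 in heterozygous hearts. It was lower in each heterozygous heart, with a log2 fold change of -0.35 (95% interval -0.78 to 0.07, adjusted p = 0.451).

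**Figure D2:**
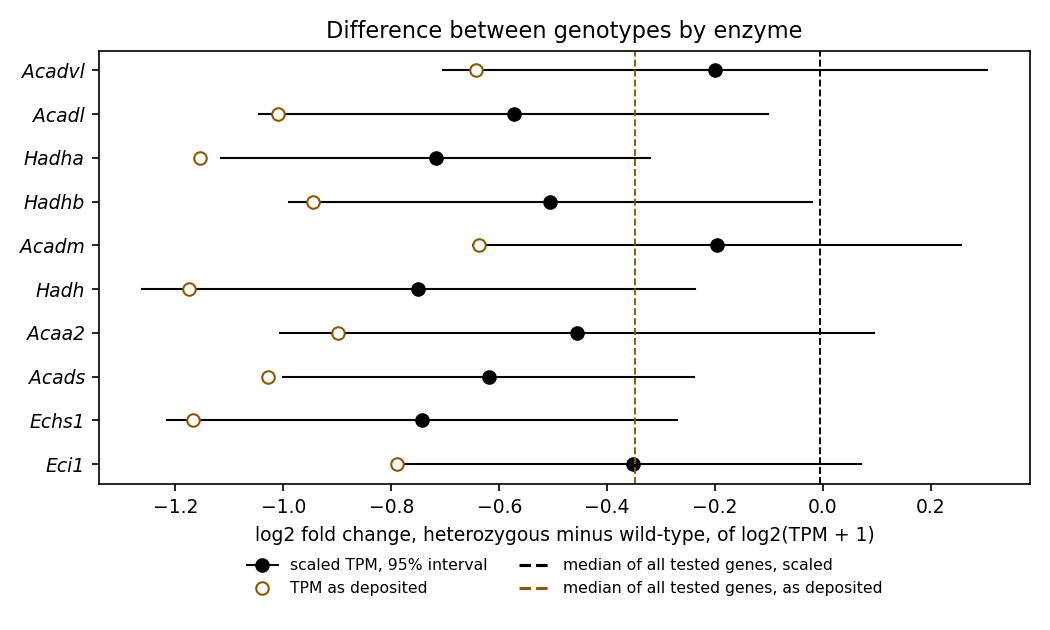
Log2 fold change, heterozygous minus wild-type, of each enzyme gene on scaled TPM (filled, with the 95% interval from limma, n = 2 per genotype) and on TPM as deposited (open), with dashed lines at the median of all tested genes on each scale. All 10 lie to the left of the median line of their own scale, between -0.75 and -0.20 after scaling and between -1.17 and -0.64 as deposited.

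The class medians were not in the order of chain length. The median log2 fold change was -0.54 for the 4 long-chain genes, -0.46 for the 3 medium-chain genes and -0.68 for the 2 short-chain genes, while within the long-chain class the values ran from -0.72 to -0.20 and within the medium-chain class from -0.75 to -0.20. Grouped instead by the step of the cycle, an arrangement made after the values were seen, the 3 genes of the hydratase and 3-hydroxyacyl dehydrogenase steps (*Hadha*, *Hadh* and *Echs1*) stood close together between -0.75 and -0.72. The thiolase genes *Hadhb* and *Acaa2* had -0.51 and -0.46. The acyl-CoA dehydrogenase genes were the most spread, from -0.62 for *Acads* and -0.57 for *Acadl* to -0.20 for *Acadvl* and *Acadm*.

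On TPM as deposited the differences were larger, as they were for most genes. The log2 fold changes of the 10 ran from -1.17 to -0.64 with a median of -0.98, which is -0.63 relative to the median of all tested genes. Adjusted p values lay between 0.0891 and 0.137 (limma), so 0 of the 10 were called, where 0.11% of tested genes were called lower. Before adjustment all 10 had p below 0.05, as did 33.3% of all tested genes in that direction, and 90.6% had a log2 fold change below 0. Both heterozygous hearts were lower for 10 of 10 genes, *Acadvl* included, and for 67.8% of all tested genes. The summed level of the 10 genes was 825.3 and 1023 TPM in the wild-type and 443.5 and 583.8 TPM in the heterozygous hearts as deposited, and 758.7 and 812.1 against 542.5 and 646.3 in scaled TPM. The heterozygous sum was 55.6% of the wild-type sum on the first scale and 75.7% on the second, and the hearts did not overlap on either.

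Ratios between genes of the same library do not depend on the scaling. Long-chain genes made up 51.6% and 50.2% of the summed TPM of the 10 genes in wild-type hearts and 49.9% and 51.5% in heterozygous hearts, with overlap. Medium-chain genes took 36.6% and 38.0% against 39.4% and 37.4%, which also overlapped. Short-chain genes took the smaller share of 4.13% and 4.52% in heterozygous hearts against 5.37% and 5.54% in wild-type hearts, without overlap. The share of *Eci1* was 6.36% and 6.30% in wild-type and 6.51% and 6.55% in heterozygous hearts, higher in the latter without overlap. Taken relative to the same sum, both heterozygous hearts were under the wild-type hearts for 3.39% of all tested genes and above them for 62.9%.
Relative to *Acadvl*, the most abundant of the 10, 6 of the other 9 genes were lower in both heterozygous hearts, as were 7.18% of all other tested genes, while 32.9% were higher in both. The ratio of *Hadha* to *Acadvl* was 0.370 and 0.426 in wild-type and 0.303 and 0.249 in heterozygous hearts. That of *Echs1* to *Acadvl* was 0.141 and 0.184 against 0.106 and 0.110. *Hadhb*, *Acadm* and *Eci1* overlapped in this ratio, and that of *Acadm* was 0.589 and 0.720 in wild-type and 0.820 and 0.518 in heterozygous hearts.

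**Figure D3:**
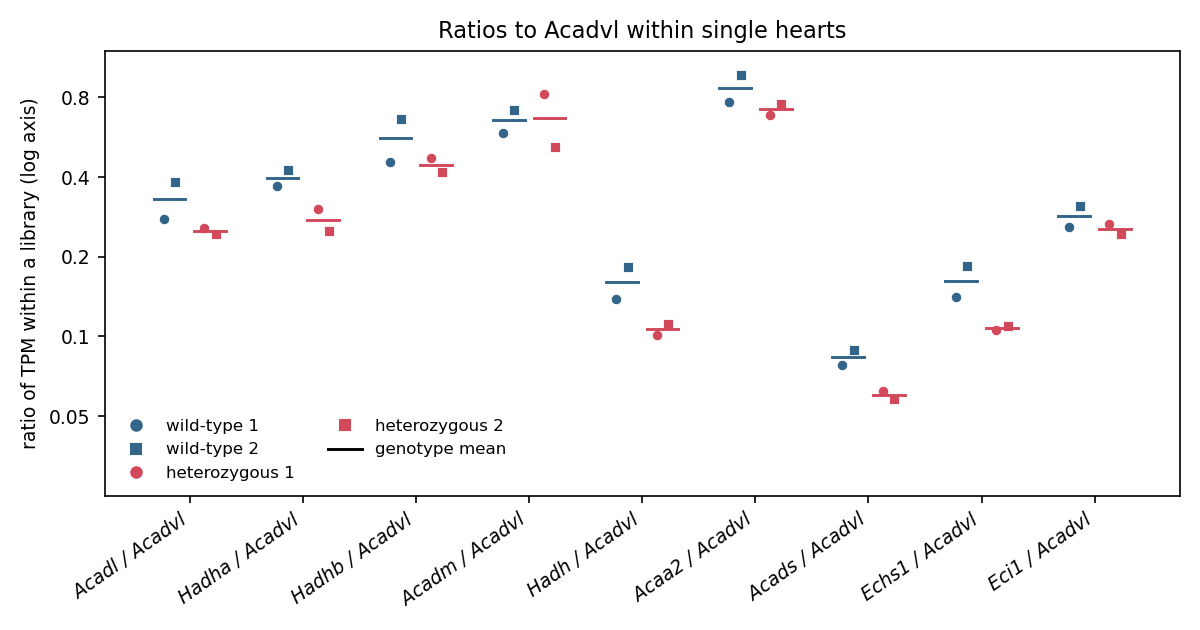
TPM of each of the other 9 genes divided by that of *Acadvl* in the same library (log axis), with circles for replicate 1, squares for replicate 2 and a bar for each genotype mean (n = 2). The heterozygous hearts lie under both wild-type hearts for *Acadl*, *Hadha*, *Hadh*, *Acaa2*, *Acads* and *Echs1*, and overlap them for *Hadhb*, *Acadm* and *Eci1*.

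The subunits of the trifunctional protein did not keep an identical ratio. There were 1.23 and 1.56 *Hadhb* transcripts per *Hadha* transcript in wild-type hearts against 1.56 and 1.67 in heterozygous ones, so the second wild-type heart stood beside the first heterozygous heart. *Echs1* and *Hadh*, whose proteins take successive steps on shorter chains, were nearly equal in every heart, with *Echs1* at 1.016 and 1.003 times *Hadh* in the wild-type and 1.05 and 0.982 times in the heterozygous hearts. Per *Hadha* transcript, *Hadh* was present at 0.374 and 0.431 in wild-type and 0.333 and 0.448 in heterozygous hearts, with overlap. *Acadm* exceeded *Acads* by 7.54 and 8.08 times in wild-type hearts and by 13.2 and 8.95 times in heterozygous hearts, so most of the distance came from the first heterozygous heart.
In wild-type hearts the order of scaled TPM was *Acadvl*, *Acaa2*, *Acadm*, *Hadhb*, *Hadha*, *Acadl*, *Eci1*, *Echs1*, *Hadh* and *Acads*. Neighbours in this order had separate wild-type ranges, apart from *Echs1* and *Hadh*. The heterozygous means had the same order except that *Eci1* (38.8) stood before *Acadl* (38.3).

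Other genes of fatty acid oxidation were read from the same model. Of 25 such genes 24 were tested and 0 were called. *Acaa1b*, a peroxisomal thiolase gene, was left out of the test with at most 0.10 TPM. Before adjustment 7 of the 24 had p below 0.05, all lower, against 5.71% of all tested genes in that direction. Genotypes were separate with the heterozygous hearts lower for 15 of the 24 and with them higher for 2, *Acad9* and *Acaa1a*, both of which were lower on TPM as deposited. Over all tested genes, 23.3% and 23.7% were separate in these directions. The 24 genes had a median log2 fold change of -0.21, against -0.54 for the 10 matrix enzymes and -0.005 for all tested genes.
The acyl-CoA dehydrogenases hand their electrons to the electron transfer flavoprotein, encoded by *Etfa* and *Etfb*, and from there to the ubiquinone pool through *Etfdh*. These 3 genes had log2 fold changes in the range of the matrix enzymes, between -0.69 and -0.58. *Etfa* had the lowest value of the 3, with 45.8 and 57.6 scaled TPM in wild-type and 27.5 and 35.9 in heterozygous hearts (log2 fold change -0.69, limma adjusted p = 0.341), and *Etfdh* had the highest, with 35.9 and 38.7 against 22.9 and 26.6 (-0.58, adjusted p = 0.341). For each of the 3 the genotypes were separate.
The carnitine shuttle brings long-chain acyl groups into the matrix. *Slc25a20*, the carnitine-acylcarnitine carrier of the inner membrane, had the lowest log2 fold change of 4 genes, with 12.64 and 14.002 scaled TPM in wild-type and 7.34 and 9.24 in heterozygous hearts (log2 fold change -0.63, limma adjusted p = 0.335). *Cpt1b*, the muscle form of the outer-membrane carnitine palmitoyltransferase, had the highest of the 4, with 120.0 and 122.2 against 119.6 and 92.1 (-0.20, adjusted p = 0.682). Like *Acadm*, it was close to the wild-type level in the first heterozygous heart and lower in the second.
Among auxiliary matrix enzymes, *Hsd17b10*, a 3-hydroxyacyl-CoA dehydrogenase with branched-chain and steroid substrates, had the lowest log2 fold change of -0.63 (adjusted p = 0.356, limma). *Acad9*, which also serves as a complex I assembly factor, had the highest at 0.10 (adjusted p = 0.791). On TPM as deposited the value of *Acad9* was -0.31, which is 0.04 above the median of all tested genes on that scale. Of the acyl-CoA dehydrogenases of amino acid breakdown and related matrix enzymes, 8 genes had a median of -0.13, from *Acadsb* at -0.33 (adjusted p = 0.407) to *Acad10* at 0.17 (adjusted p = 0.668), and 5 of the 8 overlapped between genotypes. The 4 tested peroxisomal genes had a median of -0.11, from *Ehhadh*, the peroxisomal bifunctional enzyme, at -0.41 (adjusted p = 0.346) to *Acaa1a*, a peroxisomal thiolase, at 0.08 (adjusted p = 0.860). As deposited, *Acad10* stood at -0.22 and *Acaa1a* at -0.35.

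**Figure D4:**
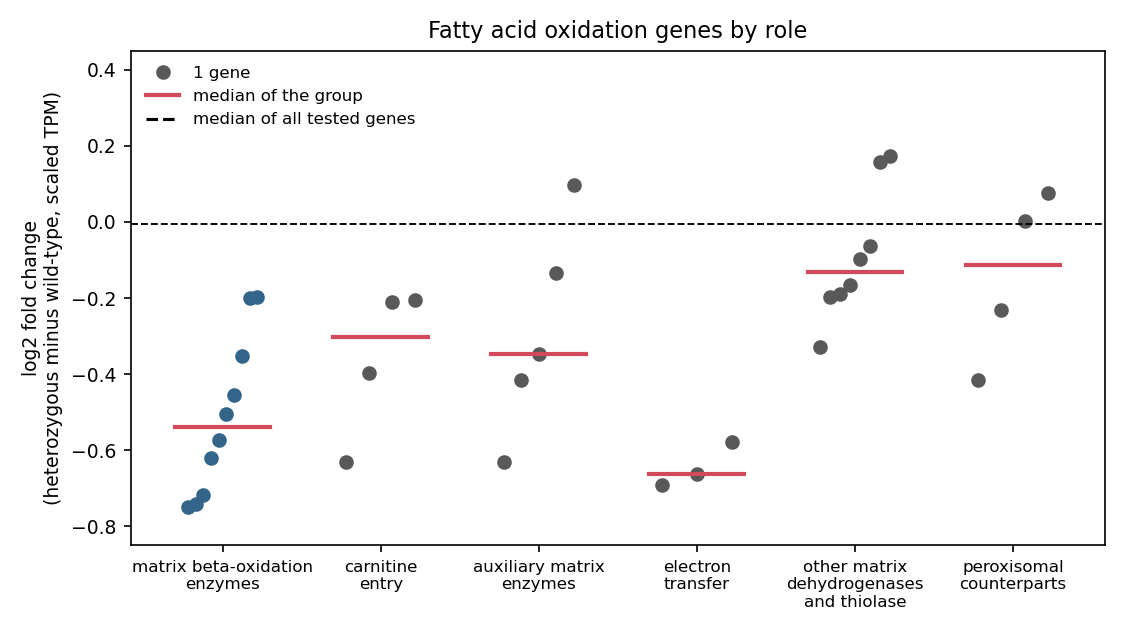
Log2 fold change, heterozygous minus wild-type, on scaled TPM of single fatty acid oxidation genes by role (1 point per gene), with the median of each group (red) and of all tested genes (dashed). The matrix beta-oxidation genes have a median of -0.54 and the electron transfer genes one of -0.66, whereas the peroxisomal genes have a median of -0.11.

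Markers of other cells were read beside these values, and their part in the results was not tested. The summed scaled TPM of 7 cardiomyocyte markers, not all of them restricted to the ventricle, was 22736 and 21342 in wild-type and 18709 and 22195 in heterozygous hearts. This sum is carried mostly by *Myh6* and *Myl2*, and single genes differed from it. Of the 7, 5 had a lower mean in heterozygous hearts, and 3 of them were separate, *Actc1* (log2 fold change -0.46), the ventricular myosin light chain gene *Myl2* (-0.39) and phospholamban *Pln* (-0.48), against a median of -0.54 for the 10 beta-oxidation genes. Over all tested genes, 50.7% had a log2 fold change below 0 and 23.3% were separate and lower on scaled TPM. These shares apply to the other marker classes as well. *Myh6* (0.08) and *Tnni3* (0.04) were above 0 after scaling, where both overlapped between genotypes, and below 0 on TPM as deposited (-0.37 and -0.41). On TPM as deposited both were separate and lower, as were the others of the 7 cardiomyocyte markers and 67.8% of all tested genes. Atrial markers (4 genes) varied widely within each genotype, with sums of 806.4 and 2354 in wild-type and 1918 and 3281 in heterozygous hearts, and all 4 had a higher mean in heterozygous hearts with overlapping genotypes. The 5 erythroid markers summed to 929.8 and 987.0 against 965.4 and 2120, and all 5 had a higher mean in heterozygous hearts. Only *Hba-a2* was separate and higher, with 326.1 and 353.0 scaled TPM against 356.4 and 774.4, and it overlapped on TPM as deposited. Sums of 6 fibroblast markers (56.4 and 80.2 against 53.5 and 57.2) and of 5 macrophage markers (24.6 and 26.5 against 18.1 and 25.3) overlapped as well. Among the fibroblast markers, *Dcn* (log2 fold change -0.56) and *Lum* (-0.39) were each lower without overlap, at 66.5% and 66.3% of the wild-type mean. *Col1a1* (0.09) and *Col3a1* (0.09) overlapped after scaling. Both were below 0 on TPM as deposited (-0.25 and -0.34), where *Col1a1* overlapped and *Col3a1* was separate and lower. Among the macrophage markers, *Lyz2* (-0.38) was lower without overlap. *Cd68* (0.23, and -0.06 on TPM as deposited), *Csf1r* (-0.02) and *Ptprc* (-0.03) overlapped after scaling, and *Adgre1* was too low to be tested. The 5 endothelial markers summed to 58.5 and 61.0 in wild-type and 50.2 and 55.2 in heterozygous hearts, without overlap. *Pecam1* (-0.43) and *Kdr* (-0.21) were separate and lower, whereas *Cdh5* (-0.02), *Tek* (-0.05) and *Emcn* (-0.14) overlapped after scaling. The 5 smooth muscle and mural markers summed to 62.5 and 56.9 against 40.2 and 57.8, with overlap. *Acta2* (-0.54) and *Myh11* (-0.14) were separate and lower, whereas *Tagln* (-0.19) and *Rgs5* (-0.19) overlapped after scaling. *Cnn1*, under 1 TPM in every library, was too low to be tested and had a higher mean in heterozygous hearts. None of the markers reached an adjusted p under 0.05 (limma, smallest 0.394). Of 6 adipocyte markers 5 were under 1 TPM in every library, the defining genes *Adipoq*, *Plin1* and *Lep* among them. The exception was *Cidea*, with 4.5 to 7.18 TPM. Of 6 skeletal muscle markers 4 were under 1 TPM and 3 were listed at 0 in every library. The exceptions were *Mylpf*, with 1.74 to 2.93 TPM, and *Tnnt3*, with 0.46 to 1.57 TPM.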

How the data were processed

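Heart RNA in 2 wild-type and 2 *Ctcf* heterozygous libraries was analysed, with groups and replicate numbers taken from the sample labels. The authors trimmed reads with Trim Galore, aligned them to mm10 with STAR and quantified genes with RSEM, and deposited TPM per gene rounded to 2 decimals. The annotation release is not given in the sources used here. The authors ran DESeq2 on counts, which are not used here, and limma on log2 values was used in place of a count model. TPM keep no depth, which cannot be given per sample.

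Libraries were divided by median-of-ratios factors over genes with a mean of at least 1 TPM and above 0 in every library (1.09 and 1.26 for wild-type, 0.818 and 0.903 for heterozygous). A pseudocount of 1 was added, log2 taken and the genotypes compared with limma (3.58.1, lmFit and eBayes with trend, R 4.3.3), two-sided, with Benjamini-Hochberg adjustment over 10036 genes. A call needed an adjusted p below 0.05 with a difference of more than 1.5-fold. The labels number the replicates but do not say that they are separate mice. The p values and intervals rest on the spread within genotypes of these 4 libraries and on variance that limma shares across genes. Of 6.64 total degrees of freedom, 4.64 came from that shared variance. The 10 genes and all gene lists were chosen with earlier results of these data known, and no gene set was tested. The named genes are the 10 members and, from the other fatty acid oxidation genes, the highest and lowest of each group. Cell type markers were named after the values were seen, where the genotypes were separate and where other markers of the same class differed from that. Near-identical transcripts were sought with BLAST+ (2.17.0), keeping matches of at least 95% identity. Gene positions are those of GENCODE M21 and promoter windows those of RefSeq GRCm38.p6. Alternatives were pseudocounts of 0.1 and 5, other filters, TPM as deposited, quantile normalization, removal of mt- genes, eBayes without trend, a replicate block, stricter thresholds and each library left out. Removal of mt- genes with their 11 nuclear copies was added after the values were seen. Tables were made with Python (3.11.15) and pandas (2.3.3).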

Additional observations from a re-analysis of the deposited data

How the results depend on the processing

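The 10 beta-oxidation genes had a log2 fold change below 0 in all 14 alternative fits, none was called in any of them, and each lay below the median of all tested genes in every fit. No gene of the wider fatty acid oxidation list was called either, nor was any with the limits set at 0.01 and 2-fold. The smallest adjusted p of a member over the alternatives was 0.0612, with mt- genes removed. The median of the 10 was -0.98 on unscaled TPM and -0.88 after removal of the mt- genes, where the median of all genes was -0.35 and -0.31. The log2 ratio of the summed TPM of the 10, -0.40 with the scaling used here, was -0.85 and -0.74 in these fits. With the nuclear copies removed as well, the median of the 10 was -0.48, that of all genes 0.05 and the log2 ratio -0.34. Quantile normalization gave -0.50, -0.003 and -0.34. With 1 library left out, the median of the 10 ran from -0.72, without heterozygous replicate 2, to -0.40, without wild-type replicate 2. The log2 ratio of their summed TPM then ran from -0.53 to -0.28. The log2 fold change of *Acadvl* was -0.003 without heterozygous replicate 1. These fits assume that the lone library varies like the other genotype.

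Over all tested genes the 2 calls (both lower) became 0 without the filter on low values and 4 when 0.1 was the pseudocount. Calls numbered 13 (11 lower, 2 higher) with TPM as deposited and 14 (12 lower, 2 higher) with mt- genes removed. They numbered 6 (4 lower, 2 higher) with the nuclear copies removed as well. They ranged from 10 (without heterozygous replicate 2) to 25 (without wild-type replicate 2) with each library left out, with 14 without wild-type replicate 1 and 16 without heterozygous replicate 1. Without the filter on low values, the 24424 genes above 0 TPM in any library were tested, and 2134 had p below 0.05 before adjustment (limma). The cause of these differences was not tested. No label says that a shared replicate number marks a shared litter, batch or day, and same-numbered libraries had deviations from their genotype means with a correlation of 0.101. With the replicate block, 10 genes were called (7 lower, 3 higher) and 0 of the 10 members, with adjusted p values from 0.206 to 0.707. Depth is unknown, so its limit on these values cannot be given.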
